A study of Mus musculus with 6 samples.

Results

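Immunoglobulin gene segments are the variable (V), diversity (D), joining (J) and constant (C) genes from which B cells build antibodies. The segments described here were chosen by their measured counts: they are the genes that GENCODE vM21 types as immunoglobulin V, D, J or C genes and whose counts summed to 20 or more over 6 mouse RNA-seq libraries. This kept 141 of 264 annotated segments, out of 46078 genes in each table. Of the 123 that fell short, 89 had at least 1 count and 34 had 0 counts in every library. The heavy chain locus on chromosome 12 gave 78 of its 144 segments (68 of 113 V, 0 of 19 D, 4 of 4 J and 6 of 8 C), the kappa locus on chromosome 6 gave 57 (51 of 102 V, 5 of 5 J and the single C gene), and the lambda locus on chromosome 16 gave 6 of 12 (3 of 3 V, 0 of 5 J and 3 of 4 C). Just inside the limit were Igkv6-14 with 0, 0 and 0 counts in JMML and 16, 0 and 4 in WT, and Igkj3 with 0, 0 and 0 in JMML and 6, 5 and 9 in WT. Just outside it, each with a sum of 19, were Igkv11-125 with 0, 0 and 0 counts in JMML and 2, 2 and 15 in WT, and Ighv8-6 with 2, 12 and 1 in JMML and 0, 0 and 4 in WT. The limit was set on counts summed over both groups, and 45 segments would reach it in the JMML libraries alone, against 132 in the WT libraries alone, so the selection leans towards segments that were abundant in WT.

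Total RNA was sequenced from 3 mouse samples labelled JMML, after juvenile myelomonocytic leukemia, a childhood blood cancer with excess monocytic cells, and from 3 samples labelled wild type (WT). The series title speaks of sustained fetal blood formation and leukemia in a mouse model. The labels give no tissue, age, strain, altered gene, Cre driver or treatment. Nor do they say whether the replicates came from different animals, and p-values therefore reflect the spread among 6 samples, which may be technical. The library identifiers of JMML replicates 1 and 2 carry the letter F and those of the other 4 libraries the letter M, and JMML replicate 3 and WT replicate 3 share an identifier prefix (N393) that the labels do not explain. Xist, the transcript of the inactive X chromosome in female cells, had 54449 and 49961 counts in the libraries lettered F and between 4 and 36 in those lettered M, so sex and group cannot be fully told apart. Totals were 91976512, 108395459 and 95382538 counts in JMML replicates 1 to 3 and 61656272, 47096464 and 56163368 in WT replicates 1 to 3. Immunoglobulin segments took 0.00803%, 0.0117% and 0.0163% of these totals in JMML and 0.0363%, 0.0496% and 0.0855% in WT.

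In B-cell precursors the RAG recombinase joins V, D and J segments of the heavy locus, and later V and J segments of the kappa or lambda locus, so that a single rearranged V segment is transcribed together with a constant gene. Ighm (IgM) and Ighd (IgD) share a transcript through alternative splicing, and the IgG, IgE and IgA genes are used after class switching. Unrearranged constant genes and V segments are also transcribed at a low level as germline, or sterile, transcripts, and counts per gene do not separate these from rearranged ones. In mice, B-1 cells, a long-lived B-cell branch that arises largely in fetal life, are known for receptors against phosphatidylcholine that pair Ighv11-2 with Igkv14-126 or Ighv12-3 with Igkv4-91.

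The V segments that the results below turn on are shown by the last 90 bases of their germline coding exon, where V joins D or J. Capitals mark the last in-frame cysteine codon, the conserved cysteine that precedes the antigen-binding loop CDR3. Sequences and positions are from GENCODE vM21 on GRCm38 and are written 5′ to 3′ in the sense of transcription: Ighv7-1 (chr12:113896408-113896497, minus strand), Igkv15-103 (chr6:68437836-68437925, plus strand), Ighv11-2 (chr12:114048241-114048330, minus strand), Igkv14-126 (chr6:67896553-67896642, plus strand), Ighv12-3 (chr12:114366521-114366610, minus strand) and Igkv4-91 (chr6:68768555-68768644, minus strand).
Ighv7-1: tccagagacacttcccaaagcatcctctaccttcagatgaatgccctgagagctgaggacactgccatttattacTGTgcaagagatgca
Igkv15-103: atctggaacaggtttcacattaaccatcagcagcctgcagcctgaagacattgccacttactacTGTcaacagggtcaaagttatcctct
Ighv11-2: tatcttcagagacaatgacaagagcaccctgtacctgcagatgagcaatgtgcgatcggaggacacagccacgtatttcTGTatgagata
Igkv14-126: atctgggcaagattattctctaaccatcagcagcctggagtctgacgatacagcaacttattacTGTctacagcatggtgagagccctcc
Ighv12-3: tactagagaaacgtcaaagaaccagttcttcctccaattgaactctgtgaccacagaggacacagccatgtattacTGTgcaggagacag
Igkv4-91: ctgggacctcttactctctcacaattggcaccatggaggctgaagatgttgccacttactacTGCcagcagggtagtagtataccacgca

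Immunoglobulin transcripts were lower in JMML at all 3 loci. Summed over every annotated segment, the heavy locus gave 79.4, 114 and 157 CPM (library-size-scaled counts, with TMM factors) in JMML replicates 1 to 3 and 278, 351 and 680 in WT replicates 1 to 3. The kappa locus gave 9.04, 4.39 and 12.1 CPM in JMML and 56.3, 85.2 and 125 in WT, and the lambda locus 1.70, 1.65 and 2.19 CPM in JMML and 9.26, 11.6 and 21 in WT. Every JMML library lay below every WT library at each locus. The difference between the group means of log2 CPM was −1.85 for the heavy, −3.43 for the kappa and −2.84 for the lambda locus. Fewer B-lineage cells and less immunoglobulin RNA per cell cannot be told apart in these bulk samples.

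Of the 141 segments, 69 passed the filter on low counts and entered the quasi-likelihood test of edgeR. After Benjamini-Hochberg adjustment over 18097 genes, 42 of the 69 were lower in JMML at an adjusted p under 0.05, where 13.8% of all tested genes were. None was higher (0 of 69, and 0 also at an unadjusted p under 0.05), where 12.4% of all tested genes were. DESeq2 called 43 segments lower (16.9% of all genes) and limma-voom 45 (14.7%). With library totals alone in place of TMM factors, which moved the median log2 fold change of all tested genes to −0.21, 45 segments were called lower and 0 higher, where 19.1% of all genes were called lower and 7.07% higher. The JMML libraries all lay below the WT libraries in 48 of the 69, against 24.6% of all tested genes, and all lay above them in 0, against 22.9%. The median log2 fold change was −3.14 for the 69 and −0.02 for all tested genes. A segment that passed the filter only through its WT counts had to differ, so these counts describe the 69 and not the other 72, of which 69 had a lower and 3 a higher mean CPM in JMML. By class, 18 of 33 heavy V, 4 of 4 heavy J and 3 of 5 heavy C segments fell, with 9 of 18 kappa V, 2 of 2 kappa J and the kappa C gene, and 2 of 3 lambda V and 3 of 3 lambda C segments. In every alternative analysis that tested them, 10 of the 42 kept the call: Ighd, Igha, Igkc, Iglv1, Ighv11-2, Igkv14-126 and Igkv9-120, and, chosen after their values were seen, Ighv5-16, Ighv1-75 and Igkv5-39. The other 32 lost it in at least 1. With the identifier letter as a covariate 11 of 69 segments were called lower (6.91% of all genes), and with only the 4 M libraries 16 of 136 (6.44%); in both the difference rests on JMML replicate 3 against WT.

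Among the constant genes of the heavy locus, Ighm, the IgM heavy chain, was by far the most abundant. It had 6158, 11562 and 13643 counts in JMML and 16060, 15804 and 34828 in WT. Per kilobase of exon that is 59.2 ± 19.9 CPM in JMML and 203 ± 100 in WT (SD, n = 3 each), and every JMML library was below every WT library. Its log2 fold change was −1.78 ± 0.38 (SE, edgeR adjusted p = 0.0161). The call ended with the identifier letter as a covariate (−1.35, adjusted p = 0.130), with only the 4 libraries lettered M (−1.31, adjusted p = 0.152) and without JMML replicate 2 (−1.75, adjusted p = 0.0534).

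Ighd, the IgD heavy chain of mature naive B cells, had 14, 25 and 45 counts in JMML and 206, 170 and 432 in WT. The groups were far apart, and the log2 fold change was −3.93 ± 0.55 (SE, edgeR adjusted p = 0.00448). Igha, the IgA heavy chain, had 24, 72 and 27 counts in JMML and 209, 107 and 115 in WT, a log2 fold change of −2.50 ± 0.44 (adjusted p = 0.00863). Within heavy constant counts Ighm took 99.2%, 98.8% and 98.8% in JMML and 97.3%, 97.4% and 98.2% in WT, with exact (Clopper-Pearson) 95% intervals that all lay between 97.1% and 99.4%.

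In edgeR's test none of the IgG genes was called. Ighg2b had 4, 4 and 23 counts in JMML and 18, 28 and 88 in WT (log2 fold change −2.76 ± 0.91 SE, adjusted p = 0.0615). Ighg2b was called lower with DESeq2 (adjusted p = 0.015), with library totals alone in edgeR (0.0485), with no filter (0.0294), with the replicate number as a block (0.0309) and without JMML replicate 3 (0.028). Ighg2c, the only tested segment with a fold change above 0, had 8, 37 and 62 counts in JMML and 0, 22 and 0 in WT (1.47 ± 1.39, adjusted p = 0.461). Ighg3 was not tested and had 0, 0 and 4 counts in JMML and 8, 94 and 4 in WT. WT replicate 2 therefore held 94 of 106 WT counts of Ighg3 and all 22 of Ighg2c. The other IgG and IgE genes lay below the limit of 20: Ighg1 with 2, 0 and 0 counts in JMML and 0, 4 and 0 in WT, and Ighe with 0 counts in all 6 libraries. Summed, the IgG genes gave 0.171, 0.390 and 0.979 CPM in JMML and 0.400, 2.84 and 1.58 in WT, and the groups overlapped.

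All tested light chain constant genes fell. Igkc, the kappa constant gene, had 467, 294 and 687 counts in JMML and 2197, 2839 and 4560 in WT. That is 10.1 ± 4.51 CPM per kilobase in JMML and 104 ± 42.0 in WT (SD, n = 3 each), and the log2 fold change was −3.38 ± 0.44 (SE, edgeR adjusted p = 0.00392). Of the lambda constant genes, Iglc1 had 43, 28 and 31 counts in JMML and 143, 110 and 328 in WT (−3.14 ± 0.51, adjusted p = 0.00677). Iglc2 had 37, 55 and 57 in JMML and 139, 99 and 260 in WT (−2.41 ± 0.41, adjusted p = 0.00761), and Iglc3 had 3, 25 and 42 in JMML and 130, 202 and 291 in WT (−3.87 ± 0.76, adjusted p = 0.0121). No JMML library reached a WT library for any of the 4 light chain genes. The lambda calls ended with the letter as a covariate (adjusted p = 0.0502 for Iglc1, 0.0688 for Iglc2 and 0.0847 for Iglc3), while their fold changes stayed between −3.28 and −2.17. Iglc2 and Iglc3 share 96.5% of 314 aligned coding bases, so how their reads were split is uncertain, and Iglc4 had 0, 0 and 0 counts in JMML and 0, 1 and 1 in WT. The lincRNA Gm30211 overlaps Igkc and the kappa J segments on the same strand and had 2, 2 and 0 counts in JMML and 105, 107 and 255 in WT.

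**Figure D1:**
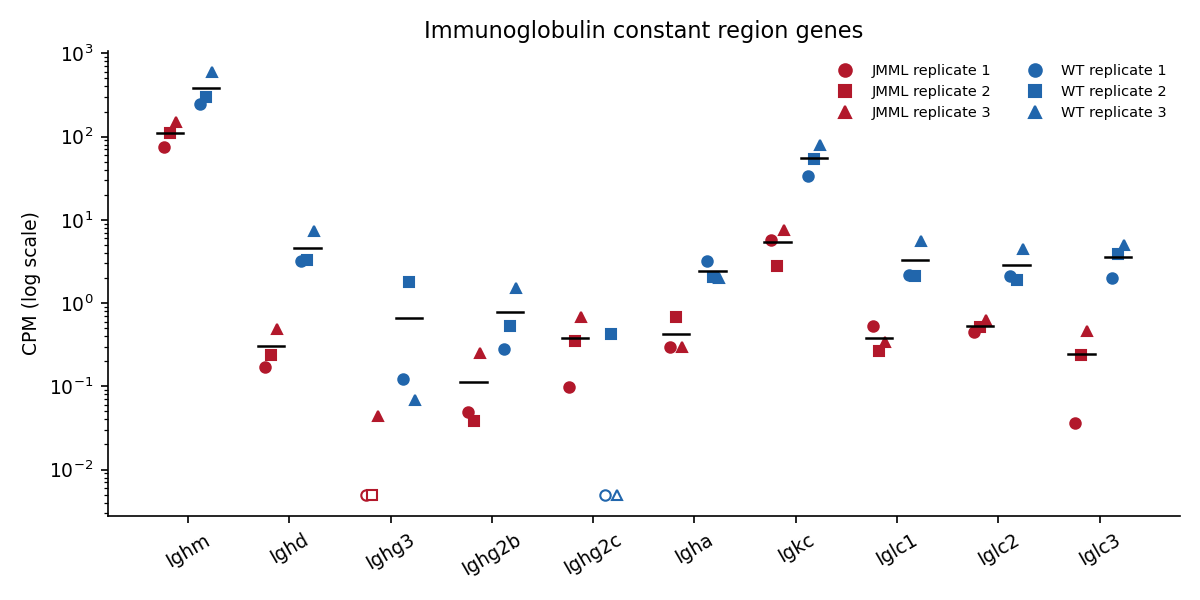
CPM on a log axis of 10 constant genes, with 1 point per library, JMML in red and WT in blue; black bars are means of groups with a count in every library, and open symbols at the bottom mark libraries with 0 counts. Ighm stands highest in both groups, the JMML points of Ighm, Ighd, Igha, Igkc and the 3 Iglc genes all lie under the WT points, and Ighg2c has points above 0 in 3 JMML libraries and 1 WT library.

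Ratios of counts within a library, in which total depth cancels, differed between classes of segment. There were 7.58, 2.54 and 5.04 Igkc counts per 100 Ighm counts in JMML and 13.7, 18 and 13.1 in WT. For Ighd the ratio was 0.227, 0.216 and 0.330 per 100 Ighm in JMML and 1.28, 1.08 and 1.24 in WT. Neither ratio overlapped between the groups, and the geometric mean in WT was 3.21 times that in JMML for Igkc and 4.73 times for Ighd. Heavy V counts summed to 4.69, 2.40 and 3.19 per 100 Ighm counts in JMML and 9.33, 12.6 and 11.2 in WT, and heavy J counts to 0.179, 0.173 and 0.308 in JMML and 0.598, 0.582 and 0.505 in WT. Ighm RNA was thus accompanied by fewer V and J counts in every JMML library than in any WT library. Leaving out Ighv7-1, the most abundant V segment, the heavy V ratio was 4.42, 2.34 and 2.84 in JMML and 8.16, 8.16 and 8.09 in WT.

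At the kappa locus V and C moved in step when all V segments were summed. Without Igkv15-103, the kappa V segment of highest mean CPM, the ratio to Igkc was less even. It was then 54.8, 54.8 and 51.8 per 100 Igkc counts in JMML and 56.8, 31.3 and 38.0 in WT, with overlap. With all V segments, kappa V counts came to 57.4, 55.8 and 59.0 per 100 Igkc counts in JMML and 64.4, 54.9 and 57.6 in WT. The groups overlapped, and their means were 57.4 ± 1.58 in JMML and 59.0 ± 4.89 in WT (SD, n = 3 each). At the lambda locus the ratio ran the other way, with 66.3, 57.4 and 50 V counts per 100 lambda C counts in JMML and 44.7, 45.1 and 37.6 in WT. Igkc took 84.9%, 73.1% and 84.1% of light chain constant counts in JMML and 84.2%, 87.3% and 83.8% in WT. JMML replicate 2 lay below the other 5 libraries (exact 95% interval 68.5 to 77.4), and the groups overlapped. These ratios are descriptions, and with 3 libraries against 3 an exact two-sided permutation test could not go below 0.1.

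**Figure D2:**
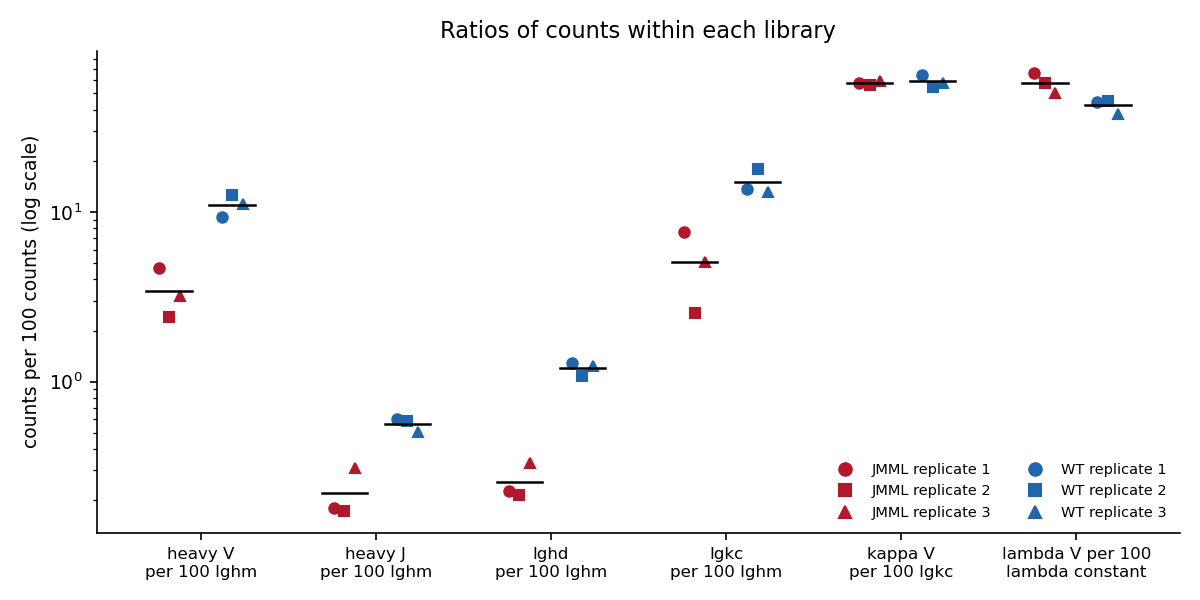
Counts of 1 class of segment per 100 counts of another within each library, on a log axis, with JMML in red left of WT in blue and black bars at the group means. The 4 ratios to Ighm are lower in every JMML library than in any WT library, kappa V per 100 Igkc lies between 54.9 and 64.4 in all 6 libraries, and lambda V per 100 lambda constant counts is higher in JMML.

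Among heavy V segments, Ighv7-1 had the most counts in every WT library. It had 17, 6 and 48 counts in JMML and 188, 696 and 1083 in WT, and its log2 fold change was −5.46 ± 0.95 (SE, edgeR adjusted p = 0.00824). Its share of heavy V counts was 5.88% (95% interval 3.46 to 9.25), 2.17% (0.799 to 4.65) and 11.0% (8.25 to 14.4) in JMML and 12.6% (10.9 to 14.3), 35.1% (33.0 to 37.2) and 27.8% (26.4 to 29.2) in WT; these exact Clopper-Pearson intervals, like all intervals here, cover counting error only. Among kappa V segments, Igkv15-103 had the highest mean and behaved alike, with 12, 3 and 49 counts in JMML and 167, 670 and 895 in WT (−5.43 ± 1.05, adjusted p = 0.0115). The heavy and the kappa segment ranked the libraries in the same order, and there were 142, 200 and 98.0 Ighv7-1 counts per 100 Igkv15-103 counts in JMML and 113, 104 and 121 in WT. Both calls ended with the letter as a covariate (−4.45, adjusted p = 0.0583 for Ighv7-1 and −4.25, adjusted p = 0.0654 for Igkv15-103) and with the M libraries alone (−4.41, adjusted p = 0.0639 and −4.20, adjusted p = 0.0672).

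The V segments of the phosphatidylcholine receptors were also lower. Ighv11-2 had 9, 0 and 0 counts in JMML and 184, 188 and 137 in WT, and the log2 fold change was −6.37 ± 1.04 (SE, edgeR adjusted p = 0.00686). Its kappa partner Igkv14-126 had 20, 0 and 2 counts in JMML and 275, 238 and 215 in WT (−5.60 ± 1.04, adjusted p = 0.00999). In both, nearly all JMML counts came from replicate 1, and the 3 WT libraries were close to each other. The other known pair, chosen after its values were seen, differed less. Ighv12-3 had 8, 6 and 14 counts in JMML and 29, 31 and 55 in WT (−2.67 ± 0.54, adjusted p = 0.0128), and Igkv4-91 had 11, 8 and 22 in JMML and 46, 20 and 41 in WT (−1.99 ± 0.54, adjusted p = 0.0344). The call of Igkv4-91 ended when any library except JMML replicate 3 was left out (adjusted p = 0.059 to 0.1), and both calls ended with the letter as a covariate (0.114 and 0.246). Counts per gene do not show which heavy and light chains were in the same cell.

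**Figure D3:**
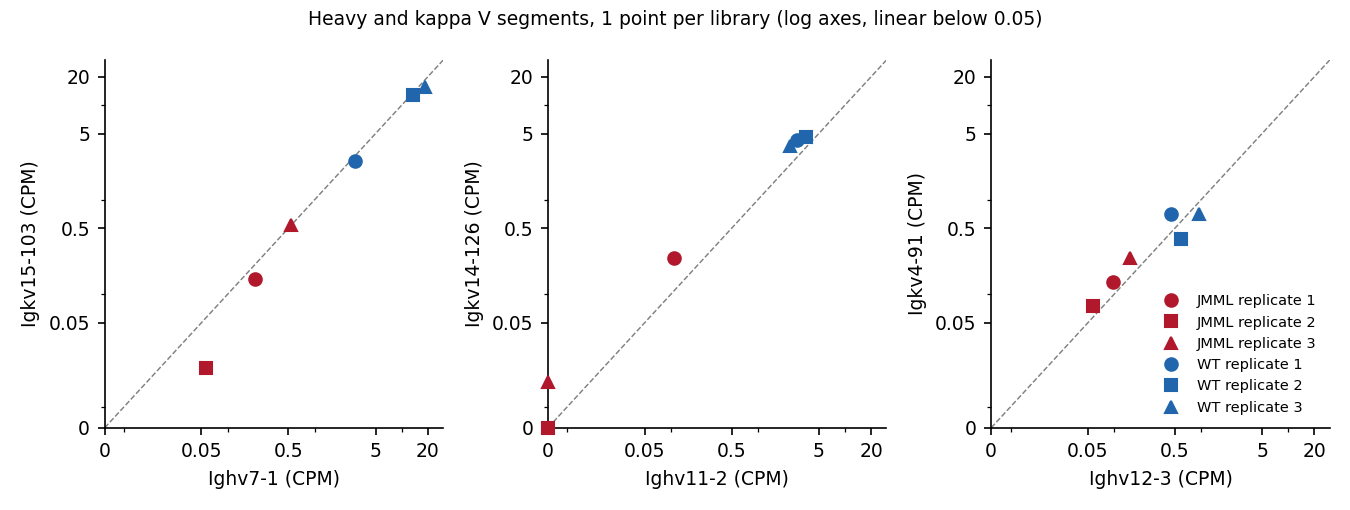
Each panel sets the CPM of a heavy V segment (horizontal) against that of a kappa V segment (vertical), with 1 point per library, JMML in red and WT in blue, on log axes that are linear below 0.05 CPM; the dashed line marks equal CPM. The 3 WT points lie up and to the right of the 3 JMML points in every panel, and in the Ighv7-1 panel the points run along the line from JMML replicate 2 with 6 and 3 counts to WT replicate 3 with 1083 and 895.

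The other abundant V segments varied strongly between libraries. Igkv9-120 had 0 counts in all JMML libraries and 57, 196 and 39 in WT, at least 164-fold lower in JMML when the floor is 3 counts over the 3 JMML libraries (edgeR adjusted p = 0.00912). Without WT replicate 2, which held 196 of its 292 counts, the bound was 71.7-fold, and the call held. Igkv1-135 had 2, 0 and 4 counts in JMML and 25, 13 and 118 in WT (log2 fold change −5.23 ± 1.18 SE, adjusted p = 0.0186), and Ighv9-3 had 2, 0 and 16 in JMML and 31, 101 and 61 in WT (−4.09 ± 1.11, adjusted p = 0.0335). The call of Igkv1-135 ended without JMML replicate 1 (adjusted p = 0.0511), JMML replicate 2 (0.0516) or WT replicate 3 (0.0533), and that of Ighv9-3 without any of these (0.0846, 0.0579 and 0.0642) or WT replicate 2 (0.117). Ighv8-8 had 0, 18 and 0 counts in JMML and 112, 11 and 83 in WT, so the groups overlapped (−4.18 ± 1.33, adjusted p = 0.0548). Ighv1-78 was not tested, and WT replicate 2 held 197 of its 222 WT counts, against 0, 6 and 2 in JMML.

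Some V segments were as frequent in single JMML libraries as in WT. Ighv1-26 had 49, 27 and 18 counts in JMML and 23, 17 and 200 in WT, so that WT replicate 3 alone carried the difference (−1.97 ± 0.98 SE, edgeR adjusted p = 0.174). Without that library its log2 fold change was 0.07. Igkv1-110 had 47, 19 and 59 counts in JMML and 22, 41 and 93 in WT (−0.96 ± 0.67, adjusted p = 0.319). Igkv1-117 had 5, 7 and 50 in JMML and 34, 30 and 90 in WT (−1.96 ± 0.91, adjusted p = 0.15). The 3 untested segments with a higher mean CPM in JMML had 37, 8 and 0 counts in JMML and 0, 0 and 3 in WT for Igkv4-74, 6, 8 and 6 in JMML and 6, 0 and 6 in WT for Igkv16-104, and 0, 3 and 13 in JMML and 2, 0 and 3 in WT for Igkv4-71.

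Each JMML library was led by a different heavy V segment. The leader was Ighv2-2 in JMML replicate 1 with 54 of 289 heavy V counts (18.7%, 95% interval 14.4 to 23.7), Ighv7-3 in replicate 2 with 47 of 277 (17.0%, 12.7 to 21.9) and Ighv7-1 in replicate 3 with 48 of 435 (11.0%, 8.25 to 14.4), whereas Ighv7-1 led in all 3 WT libraries. Several of these leads lay within counting error. Second were Ighv1-26 with 49 counts in JMML replicate 1 (17.0%, 12.8 to 21.8) and Ighv1-9 with 33 in JMML replicate 2 (11.9%, 8.34 to 16.3). In JMML replicate 3 Ighv14-2 followed with 44 (10.1%, 7.45 to 13.3). In WT replicate 1 Ighv11-2 had 184 counts against 188 of Ighv7-1. Ighv2-2 had 54, 0 and 2 counts in JMML and 17, 30 and 80 in WT, and Ighv7-3 had 4, 47 and 15 in JMML and 16, 19 and 53 in WT. For kappa, Igkv1-110 led in JMML replicates 1 and 3 (17.5% and 14.6%) and Igkv8-30 in replicate 2 with 31 of 164 counts (18.9%, 13.2 to 25.7), against Igkv14-126 in WT replicate 1 (19.4%) and Igkv15-103 in WT replicates 2 and 3 (43.0% and 34.1%).

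Fewer V segments were seen in JMML, although those libraries had the higher totals. Of all 218 annotated V segments, whatever their summed count, 22 had a count in all 3 JMML libraries, 39 in 2 of them, 51 in 1 and 106 in none, against 96, 67, 35 and 20 in WT. Because V counts differ between the groups, the comparison was repeated at equal numbers of V counts. Both reads of a fragment may have been counted separately. Thinning, which was deepest in WT, would then split such pairs and favour WT, so equal counts need not mean equal fragments. Thinned to 277 heavy V counts, 29.9, 34.0 and 37.0 of 113 segments would be seen in JMML and 57.9, 51.6 and 69.4 in WT. At 164 kappa V counts the numbers were 27.3, 22.0 and 28.3 of 102 in JMML and 37.7, 25.8 and 46.3 in WT, and there the groups overlapped. The inverse Simpson index, which is higher when counts are spread more evenly over segments, did not separate the groups. For heavy V it was 10.7, 14.0 and 18.7 in JMML and 19.4, 6.72 and 11.4 in WT. For kappa V it was 13.1, 12.4 and 13.6 in JMML and 13.8, 4.39 and 7.58 in WT. Over all 264 annotated segments of every class, 128 had 0 counts in all 3 JMML libraries and 35 had 0 counts in all 3 WT libraries.

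Shares by position along the locus overlapped between the groups. Among the 113 heavy V segments, the 56 nearest to the J segments lay 149.5 to 1154.5 kb from them and took 59.9%, 49.5% and 74.5% of heavy V counts in JMML and 65.6%, 76.1% and 67.3% in WT. Among the 102 kappa V segments, the nearest 51, from 19.4 to 1306.1 kb, took 31.7%, 41.5% and 32.6% of kappa V counts in JMML and 32.2%, 14.7% and 26.0% in WT. Both ranges overlapped, and without Igkv15-103 the kappa shares were 33.2%, 42.2% and 37.1% in JMML and 36.5%, 25.8% and 39.4% in WT. By family, the 53 Ighv1 segments took 40.5% ± 10.5 of heavy V counts in JMML and 28.4% ± 4.19 in WT, and the 26 Igkv4 segments 18.1% ± 6.28 of kappa V counts in JMML and 10.1% ± 6.0 in WT (SD, n = 3 each), again with overlap.

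**Figure D4:**
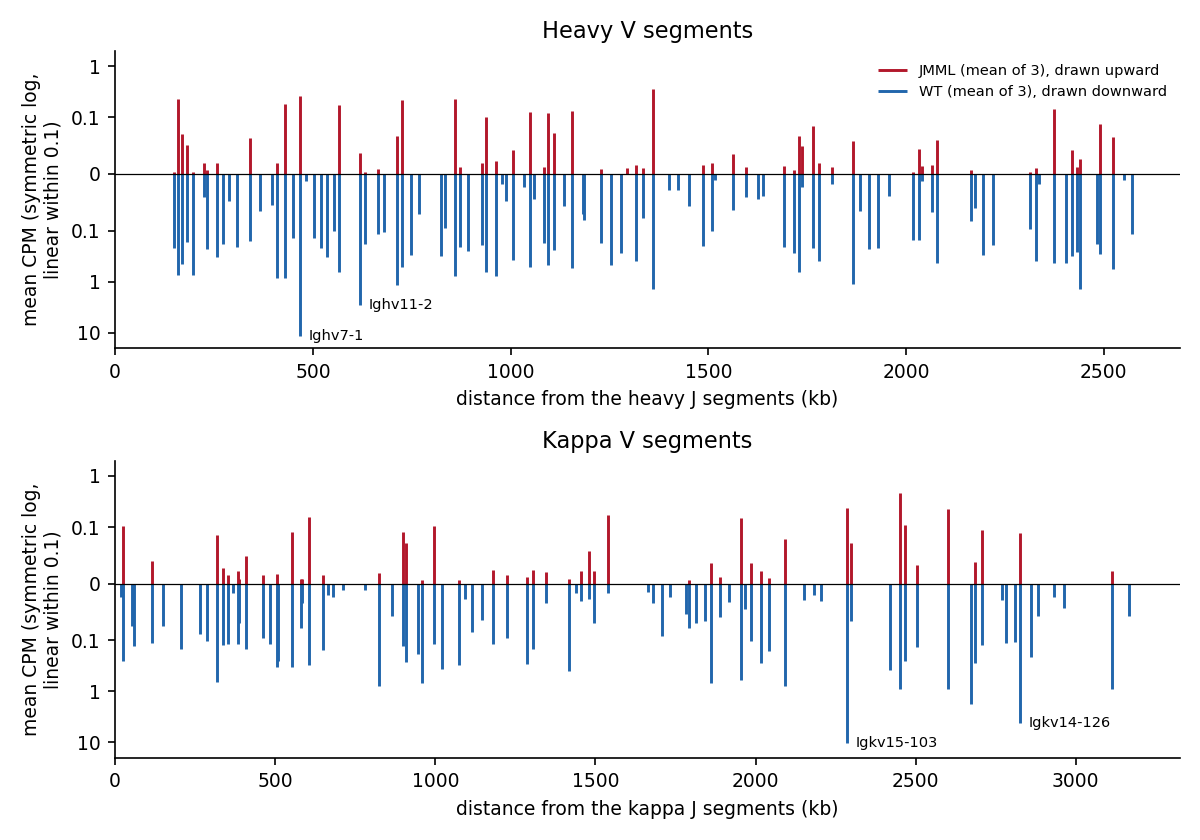
Mean CPM of every annotated heavy (top) and kappa (bottom) V segment against its distance in kb from the J segments of its locus, with JMML drawn upward in red and WT downward in blue on a symmetric log axis that is linear within 0.1 CPM. WT bars occur along the whole of both loci and peak at Ighv7-1, Ighv11-2, Igkv15-103 and Igkv14-126, while JMML bars are fewer and stay below 1 CPM.

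Of the 3 lambda V segments 2 fell. Iglv1 had 22, 37 and 36 counts in JMML and 135, 145 and 225 in WT, a log2 fold change of −3.09 ± 0.35 (SE, edgeR adjusted p = 0.00288). Iglv2 had 23, 23 and 29 counts in JMML and 25, 26 and 48 in WT (−1.06 ± 0.43, adjusted p = 0.110), which leaves every JMML library below every WT library in CPM. Iglv3 had 10, 2 and 0 counts in JMML and 24, 15 and 58 in WT (−3.57 ± 1.06, adjusted p = 0.0449), and this call ended when any library except JMML replicate 1 was left out (adjusted p = 0.0728 to 0.144). Iglv2 made up 41.2% ± 3.80 of lambda V counts in JMML and 14.0% ± 0.459 in WT, and Iglv1 51.7% ± 10.3 in JMML and 73.1% ± 5.0 in WT (SD, n = 3 each), without overlap. Iglv1 and Iglv2 share 96.9% of 351 aligned coding bases, so reads may have been shared out between them, and the antisense gene 2010309G21Rik over Iglv1 had 0 counts except for 11 in WT replicate 3. Their last 90 coding bases, shown because the 2 segments are nearly alike, lie at chr16:19085017-19085106 for Iglv1 and chr16:19260401-19260490 for Iglv2, both on the minus strand, with the same cysteine codon in capitals.
Iglv1: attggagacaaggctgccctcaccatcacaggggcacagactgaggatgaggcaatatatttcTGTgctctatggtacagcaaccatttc
Iglv2: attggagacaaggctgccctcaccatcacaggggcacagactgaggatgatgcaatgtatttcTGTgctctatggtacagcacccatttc

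The J segments supply the other side of CDR3, which ends at a conserved tryptophan in heavy and phenylalanine in light chains followed by glycine. Their coding bases are shown, since all 9 passed the limit and their short length bounds how many reads they can take, with the codons of that motif in capitals: Ighj1 (chr12:113429781-113429833), Ighj2 (chr12:113429468-113429515), Ighj3 (chr12:113429085-113429132) and Ighj4 (chr12:113428514-113428567) on the minus strand, and Igkj1 (chr6:70722562-70722599), Igkj2 (chr6:70722916-70722954), Igkj3 (chr6:70723223-70723260), Igkj4 (chr6:70723548-70723585) and Igkj5 (chr6:70723886-70723923) on the plus strand. The annotated exon is longer than the coding bases for Ighj2 (100 against 48 bases), Igkj2 (43 against 39) and Igkj5 (42 against 38). In Igkj3, which is regarded as nonfunctional in mice, the capitals read TTCAGT.
Ighj1: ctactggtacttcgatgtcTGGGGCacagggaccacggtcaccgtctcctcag
Ighj2: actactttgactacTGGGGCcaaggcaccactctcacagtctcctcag
Ighj3: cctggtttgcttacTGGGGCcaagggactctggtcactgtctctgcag
Ighj4: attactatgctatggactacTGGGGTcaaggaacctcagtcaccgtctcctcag
Igkj1: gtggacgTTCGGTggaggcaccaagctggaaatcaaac
Igkj2: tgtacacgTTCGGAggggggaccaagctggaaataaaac
Igkj3: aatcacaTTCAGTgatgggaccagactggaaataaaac
Igkj4: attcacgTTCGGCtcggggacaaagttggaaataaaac
Igkj5: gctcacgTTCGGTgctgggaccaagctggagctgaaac

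All heavy J segments fell. Ighj1 had 3, 5 and 15 counts in JMML and 29, 45 and 67 in WT (log2 fold change −3.28 ± 0.68 SE, edgeR adjusted p = 0.0146), and Ighj2 had 1, 7 and 9 in JMML and 34, 25 and 59 in WT (−3.45 ± 0.69, adjusted p = 0.0124). Ighj3 had 1, 2 and 4 counts in JMML and 11, 9 and 21 in WT (−3.14 ± 0.69, adjusted p = 0.0173). Ighj4 had the smallest fold change, with 6, 6 and 14 counts in JMML and 22, 13 and 29 in WT (−1.92 ± 0.56, adjusted p = 0.0426). Its share of heavy J counts was 39.3% ± 13.3 in JMML and 17.8% ± 4.55 in WT (SD, n = 3 each), without overlap but on only 11, 20 and 42 heavy J counts in JMML. Of the kappa J segments, Igkj1 with 3, 1 and 3 counts in JMML and 12, 13 and 19 in WT (−3.22 ± 0.64, adjusted p = 0.0124) and Igkj2 with 0, 1 and 3 in JMML and 13, 10 and 12 in WT (−3.65 ± 0.81, adjusted p = 0.0182) were called. With the letter as a covariate all 6 of these J segments lost the call (adjusted p = 0.095 to 0.292), and likewise with only M libraries (0.0898 to 0.379). All but Ighj2 also lost it when some single library was left out, with the fold change still below 0. That held for Ighj1 without JMML replicate 2 or WT replicate 2 (adjusted p = 0.0524 and 0.0523), for Ighj3 without any library except JMML replicate 3 and WT replicate 1 (0.0511 to 0.0778), for Ighj4 without any library except JMML replicate 3 (0.0795 to 0.154), for Igkj1 without JMML replicate 2 or either of WT replicates 2 and 3 (0.0502 to 0.0554) and for Igkj2 without JMML replicate 2 or any WT library (0.0565 to 0.0851). Igkj3, Igkj4 and Igkj5 were not tested, and every WT library held at least 5 counts of each, whereas no JMML library held more than 2. The 19 D segments together had 9 counts, against 660 for all J segments of the 3 loci.

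The genes that assemble, transcribe and use these segments were followed by lists in which 38 genes were tested, 24 fell and 2 rose, where 13.8% of all tested genes fell and 12.4% rose. With the letter as a covariate 9 of the 38 were called lower (6.91% of all genes), and with only M libraries 8 (6.44%). Among 10 recombination genes, 6 fell and 0 rose. With any single library left out, 4 or 5 of them fell, and 1 rose only without WT replicate 3. The recombinase genes Rag1 (−5.51 ± 0.83 SE, edgeR adjusted p = 0.00553) and Rag2 (−4.19 ± 0.67, adjusted p = 0.00653) and Dntt (−3.28 ± 0.62, adjusted p = 0.0105), which adds bases at the joints, fell most, whereas the general end-joining gene Prkdc differed by only −0.64 ± 0.13 (adjusted p = 0.0121). All 4 genes of the surrogate light chain list fell, with Igll1, which pairs with new heavy chains in pre-B cells, at −5.62 ± 1.06 (adjusted p = 0.0106) and Vpreb3 at −7.72 ± 1.32 (adjusted p = 0.00779).

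Of 10 transcription factors that act on the segments, 9 fell and 0 rose, and 6 or 7 fell with any single library left out (6.10% to 11.0% of all genes). The largest changes were those of Pou2af1, the B-cell coactivator of octamer-binding factors on V promoters (0.187 ± 0.125 CPM in JMML and 35.4 ± 29.2 in WT, log2 fold change −7.55 ± 0.79 SE, edgeR adjusted p = 0.00249), and of Pax5, the B-lineage commitment factor (0.446 ± 0.243 CPM in JMML and 48.6 ± 41.5 in WT, −6.76 ± 0.77, adjusted p = 0.00288). Of 7 receptor chains and adaptors, 4 fell and 1 rose. Cd79a, a signalling chain of the B-cell receptor, was at −6.07 ± 0.82 (adjusted p = 0.00422), and the kinase gene Lyn, which myeloid cells also express, rose by 0.89 ± 0.13 (adjusted p = 0.00474). Of 7 tested genes of class switching and secretion, 1 fell and 1 rose, near the shares of all tested genes (13.8% lower and 12.4% higher). Jchain, which links IgM and IgA into polymers, fell (−3.53 ± 0.40, adjusted p = 0.00281). Xbp1, a secretory pathway factor used in many cell types, rose (0.72 ± 0.10, adjusted p = 0.00433).

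**Figure D5:**
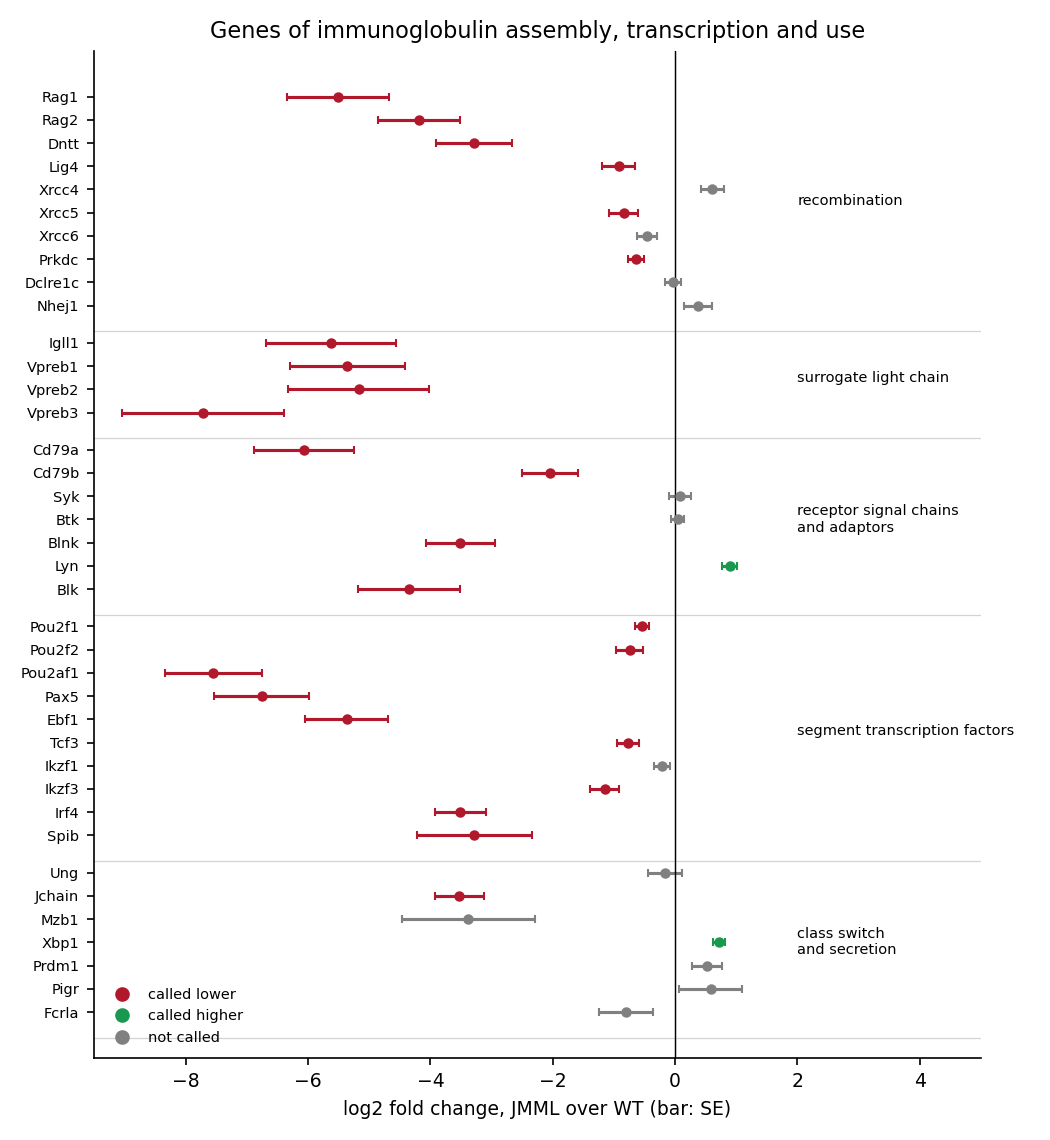
Log2 fold change of JMML over WT (horizontal, bars are SE) of the 38 tested genes in 5 lists, with genes called lower in red, called higher in green and not called in grey. Genes used mainly by B cells, such as Pou2af1, Vpreb3 and Pax5, lie furthest to the left, and Lyn and Xbp1 are the 2 genes called higher.

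Most markers of pro-B, pre-B, mature B and T cells fell along with the segments, whereas the plasma cell and myeloid lists did not. The part of these cell types in the results was not tested. Counts of marker calls in edgeR's test of all 6 libraries stand beside 13.8% of all tested genes called lower and 12.4% called higher. All 8 markers of pro-B and pre-B cells fell, with summed levels of 4.64 to 16.6 CPM in JMML and 117 to 390 in WT, and Vpreb3 was at 0 in 2 JMML libraries. Of 6 tested markers of mature B cells, 5 fell, Ighd among them. Their sum, most of it Cd37, was 52.5 to 63.6 CPM in JMML and 60.2 to 111 in WT, and Cr2 and Fcer2a were at 0 in at least 1 JMML library. Of 6 tested plasma cell markers, 1 fell and 1 rose, with sums of 227 to 249 CPM in JMML and 164 to 186 in WT, mostly Xbp1, and Tnfrsf17 at 0 in at least 1 library of each group. All 8 T-cell markers fell (12.2 to 19.1 CPM in JMML and 40.6 to 66.0 in WT), and of 8 myeloid markers 5 rose and 0 fell (17900 to 27900 CPM in JMML and 9490 to 14600 in WT). With the letter as a covariate, 5 of the 8 pro-B and pre-B markers were called lower (6.91% of all genes). So were 2 of the 6 mature B and 2 of the 8 T-cell markers, and 2 of the 8 myeloid markers were called higher (5.35%). Leaving out single libraries gave 5 T-cell markers without WT replicate 2 (6.10% of all genes lower) and 3 mature B markers without JMML replicate 2 (8.12%). Myeloid markers called higher numbered 1 without WT replicate 1 (7.67% of all genes higher) or 2 (5.56%) and 3 without JMML replicate 2 (8.19%). All 8 pro-B and pre-B markers fell each time (6.10% to 11.0% of all genes).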

How the data were processed

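Raw gene counts of 6 libraries of total RNA were used as the authors deposited them, as whole numbers per Ensembl gene with no normalization, judged from the values in the deposited tables, whose header line gives only the library identifier. Libraries were stranded and depleted of ribosomal RNA, per the labels' protocols. The submitters' processing notes name the build GRCm38 and, without roles, DESeq2 1.22.2 in R 3.5.0, StringTie 1.3.3b, STAR 2.5.3a, bcl2fastq 2.18.0.12 and Picard 2.0.1. The counter, its annotation, its strand setting and its handling of reads that match several genes are not given in sources used here. Near-identical V segments may therefore have lost or shared reads, and rearranged reads with D segments or mutated V segments may have gone uncounted. Between 51.6% and 58.8% of counts from 1 to 20 were even, so mates may have been counted separately.

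Symbols, types and positions came from GENCODE vM21, which matched 45143 of 46078 identifiers (98.0%). The test was the quasi-likelihood F test of edgeR 4.0.16 under R 4.3.3 (filterByExpr by group, TMM, Benjamini-Hochberg, threshold 0.05), on all genes. The common biological coefficient of variation was 29.4%. SEs were obtained by dividing the absolute log2 fold change by the root of F. A count was worth 0.00951 to 0.0192 CPM. Numbers of V segments at equal counts are expected values of sampling without replacement. Code was checked on simulated counts. DESeq2 1.42.0, limma 3.58.1, Python 3.11.15, pandas 2.3.3, scipy 1.17.1 and matplotlib 3.10.9 were also used.

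The segments and gene lists were chosen with earlier results of these data known. Named were all C genes, J segments of 20 or more counts, lambda V segments, the 6 heavy and 6 kappa V segments of highest mean CPM, the leading V segment of each library, segments at the limit of 20, and up to 4 genes a list with the smallest p. Others were chosen after their values were seen. The 15 alternative fits were DESeq2, limma-voom, DESeq2 size factors, library totals alone, no filter, at least 50 counts in 3 libraries, the identifier letter as a covariate, only M libraries, the replicate number as a block and each of the 6 libraries left out. A gene of the lists is not reported here.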

Additional observations from a re-analysis of the deposited data

Results flagged for a closer look

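The V pseudogene Ighv1-41 on chromosome 12 was flagged because it lies outside the segments described above. Every JMML library lay above every WT library, which also held for 22.9% of all tested genes. Ighv1-41 had 178, 151 and 131 counts in JMML and 34, 36 and 68 in WT, with a mean of 1.68 CPM in JMML and 0.794 in WT. The difference did not pass edgeR's test (log2 fold change 1.08 ± 0.39 SE, adjusted p = 0.0759). It was 1 of 2 immunoglobulin pseudogene segments, among 165 annotated, with 20 or more counts. The other, Ighv1-73, had 15, 22 and 9 counts in JMML and 5, 10 and 4 in WT (0.56 ± 0.61, adjusted p = 0.525).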

How the results depend on the processing

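The number of segments called lower in JMML was 42 of 69. It was 12 of 12 with at least 50 counts in 3 libraries (15.9% of all genes called lower), 11 of 69 with the identifier letter as a covariate (6.91%), 78 of 141 with no filter (6.62%), 16 of 136 with only M libraries (6.44%), and 28 to 47 with a library left out (6.10% to 11.0%), lowest without WT replicate 3. A segment could pass the filter of 50 counts through the 3 WT libraries alone, as Ighd and Ighv11-2 did. The 12 of 12 was therefore largely set by the filter. All WT libraries carry M, so in the letter and M fits the group difference rests on JMML replicate 3. That lone sample is assumed to vary like the others. Ighm changed by −1.35 (adjusted p = 0.130) with the letter, −1.31 (0.152) with M only and −1.75 (0.0534) without JMML replicate 2, with a range of −2.03 to −1.25 over single omissions. Iglc1 changed by −3.28 with the letter and −3.24 with M only (0.0538), Iglc2 by −2.17 and −2.14 (0.0876), and Iglc3 by −2.97 with the letter. Pathway genes called lower numbered 9 with the letter and 8 with M only, against 24. With M only the log2 CPM ratio of Ighd was −3.10 in place of −3.97, and the share of the nearest 56 heavy V segments differed by 4.83 in place of −8.39 percentage points. With Ighv7-1 and Igkv15-103 left out, an alternative chosen after seeing the data, the share of the nearest 51 kappa V segments differed by 3.60 in place of 11.0 points, and the log2 ratio of kappa V per Igkc was 0.401 in place of −0.04. The causes were not tested. Counting every other result under every alternative, 313 values of the main results and 741 of single genes kept their direction and side of the threshold, while 21 of single genes newly passed it and 119 no longer did.

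Same-numbered samples did not deviate together (r = −0.199, 0.0450 and −0.143). These values cannot exclude a pairing, because deviations from the mean of so few libraries depend on each other. JMML replicate 3 and WT replicate 3 share an identifier prefix. With the replicate number as a block, 27 of 69 segments were called lower (8.02% of all genes).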
